A study of Mus musculus with 11 samples.

Results

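The 10 genes described here are Trp53, which encodes p53, and 9 genes whose transcription p53 is known to activate, namely Cdkn1a, Mdm2, Bax, Perp, Ccng1, Gadd45a, Sesn2, Phlda3 and Bbc3. They were picked by gene symbol, and each matched 1 row among the 54532 genes listed for pancreas and 1 row among the 46078 listed for adipose tissue. The data were 11 RNA-seq libraries, 5 from pancreas (2 control, 3 OA-AP, for obesity-related alcohol-induced acute pancreatitis) and 6 from epididymal fat (3 control, 3 OA-AP). All mice were wild-type male C57BL/6J animals aged 16 weeks, and no change to the p53 gene is described for any group. Controls ate chow with 10 kcal% fat for 12 weeks and were injected with saline 2 times with 1 h between. OA-AP mice ate a high-fat diet with 60 kcal% fat for 12 weeks and then received ethanol intraperitoneally at 2 g/kg, given 2 times with 1 h between, and tissue was taken 12 h after the first dose. Diet, ethanol and pancreatitis cannot be told apart in these groups, and the labels do not state that replicates of a group were separate animals, so p-values measure the spread between these libraries only.

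p53 is a transcription factor that is normally kept scarce because the ubiquitin ligase Mdm2 marks it for destruction. DNA damage, oxidative stress and other insults stabilise the protein, which then binds paired copies of a short DNA element near its targets and raises their transcription. Some targets stop the cell cycle (Cdkn1a, Gadd45a), some promote apoptosis (Bax, Bbc3, Perp), and others restrain growth signalling or p53 itself (Sesn2, Phlda3, Mdm2, Ccng1). Because p53 is governed mainly at the protein level, the RNA of its targets is commonly used as a readout of its activity, although most of these targets also answer to other transcription factors. p53 protein was not measured in the data used here.

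The element p53 binds is shown first because it is how p53 recognises its targets, and not every window below held it. It is a pair of decamers, each matching the p53 response element decamer, a consensus that reads the same on both strands. RefSeq promoter windows (GRCm38.p6, 250 bases before to 50 bases after each start) were found for 9 of the 10 members, 12 windows in all, and Perp had no entry. The decamer was present in 6 of the 12 windows, which belonged to 6 genes, that is 50% against 8.36% of all 32851 windows and 22.4% of the 58 windows of the further p53 targets described below. The Cdkn1a promoter held 2 decamers fewer than 14 bases apart, which was true of 0.0731% of all windows. Its upstream stretch is printed whole, 250 bases at chr17:29090729-29090978 on the plus strand, 5′ to 3′ and ending just before the RefSeq start, with both decamers in capitals.
Cdkn1a: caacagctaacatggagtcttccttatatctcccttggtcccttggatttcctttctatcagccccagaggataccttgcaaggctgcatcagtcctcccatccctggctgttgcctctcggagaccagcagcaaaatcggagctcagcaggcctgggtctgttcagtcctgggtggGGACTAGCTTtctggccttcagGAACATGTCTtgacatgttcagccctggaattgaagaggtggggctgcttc

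The second decamer of Cdkn1a, 51 bases before the start, is followed directly by another that departs from the consensus at 1 base, so that together they form a full element of 20 bases at chr17:29090928-29090947, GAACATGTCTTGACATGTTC. A pair joined end to end with at most 1 departure was found in the windows of Cdkn1a and Ccng1 among the members and in 0.0883% of all windows. The other members with a decamer are printed with 20 flanking bases on each side, in the direction of transcription and with the decamer in capitals, so that their decamers can be read against those of Cdkn1a.
Trp53, chr11:69580264-69580313, plus strand, 75 bases before the start: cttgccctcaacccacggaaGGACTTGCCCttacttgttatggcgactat
Ccng1, chr11:40755442-40755491, minus strand, 185 bases before the start: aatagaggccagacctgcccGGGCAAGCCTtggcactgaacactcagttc
Mdm2, chr10:117710915-117710964, minus strand, 186 bases before the start: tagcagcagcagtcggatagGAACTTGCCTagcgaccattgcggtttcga
Bax, chr7:45467070-45467119, minus strand, 201 bases before the start: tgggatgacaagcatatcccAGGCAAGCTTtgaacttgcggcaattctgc
Gadd45a, chr6:67037418-67037467, minus strand, 40 bases before the start: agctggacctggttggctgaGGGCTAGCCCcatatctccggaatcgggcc
Windows of Sesn2, Phlda3 and Bbc3, and that of a later Cdkn1a start, held no decamer. The RefSeq starts of Bbc3 lay 1190 to 2038 bases from the deposited start of the gene, which its windows did not cover. Sequence outside the windows was not searched, so a window without a decamer does not show that a gene lacks the element. A match is a description of the letters and does not show that p53 bound there in these mice. Members with a decamer included the one with the largest increase in the pancreas, Cdkn1a, and 2 that were not called in either tissue, Mdm2 and Gadd45a.

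Library totals were 14188832 to 17238919 counts on genes in the pancreas and 20825177 to 27928097 in adipose tissue. In the pancreas, 52 acinar secretory genes took 81.9% and 83.4% of the counts in control libraries and 67.6% to 70.2% in OA-AP libraries, so that levels of all other genes depend on how libraries are scaled. Levels below are CPM, counts scaled to a common library size with TMM factors, which offset such shifts in composition. Acinar markers were abundant in each pancreas library and adipocyte markers in each adipose library, with summed levels of at least 162774 and 24227 CPM (5 genes each). Adipose control replicate 2 held 3610 CPM of the acinar markers, against at most 2.68 CPM in the other adipose libraries. A gene is called where its adjusted p (edgeR's quasi-likelihood test, Benjamini-Hochberg over all tested genes) was under 0.05 and its fold change at least 1.5.

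In the pancreas, 7 of the 10 members were called, each of them higher in OA-AP, and none was called lower. Over all 12884 tested genes 29.8% were called, with 16.2% called higher and 13.5% lower. Each of the 10 log2 fold changes was positive, with a median of 1.59 against 0.04 over all tested genes. In 9 of the 10 members every OA-AP library lay above every control library, and 32.9% of all tested genes did so, while groups did not overlap in either direction in 62.3%. When libraries were scaled by their totals alone, the median over all tested genes moved up by 0.71, and the share of called genes that were higher went from 54.5% to 92.0%. Then 9 members were called, beside 6349 of the 12884 tested genes, 5843 of them higher. That scaling moved log2 fold changes up, so it could not test whether the 10 members, already positive, kept their sign. Their median of 2.29 then stood against 0.75 over all genes.

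Cdkn1a, which encodes p21, the inhibitor of cyclin-dependent kinases through which p53 arrests the cell cycle, showed the largest increase of the members (ENSMUSG00000023067, chr17:29090976-29100727, GRCm38). It had 3.52 and 2.39 CPM in the control pancreas libraries and 184, 125 and 241 CPM in the OA-AP libraries. The lowest OA-AP library thus lay far above the highest control, and the spread within OA-AP was small beside that gap. The log2 fold change was 5.94 ± 0.38 (SE, n = 2 and 3), a 61.4-fold increase, with an adjusted p = 0.000132 in edgeR's quasi-likelihood test. A gene on the opposite strand, AC167363.2, overlaps Cdkn1a and had 81 counts over all pancreas libraries. Cdkn1a had 41 and 24 counts in the control libraries and 2178 or more in each OA-AP library. The strand setting of the counting is not given, and whether the overlapping genes shared reads was not tested.

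**Figure D1:**
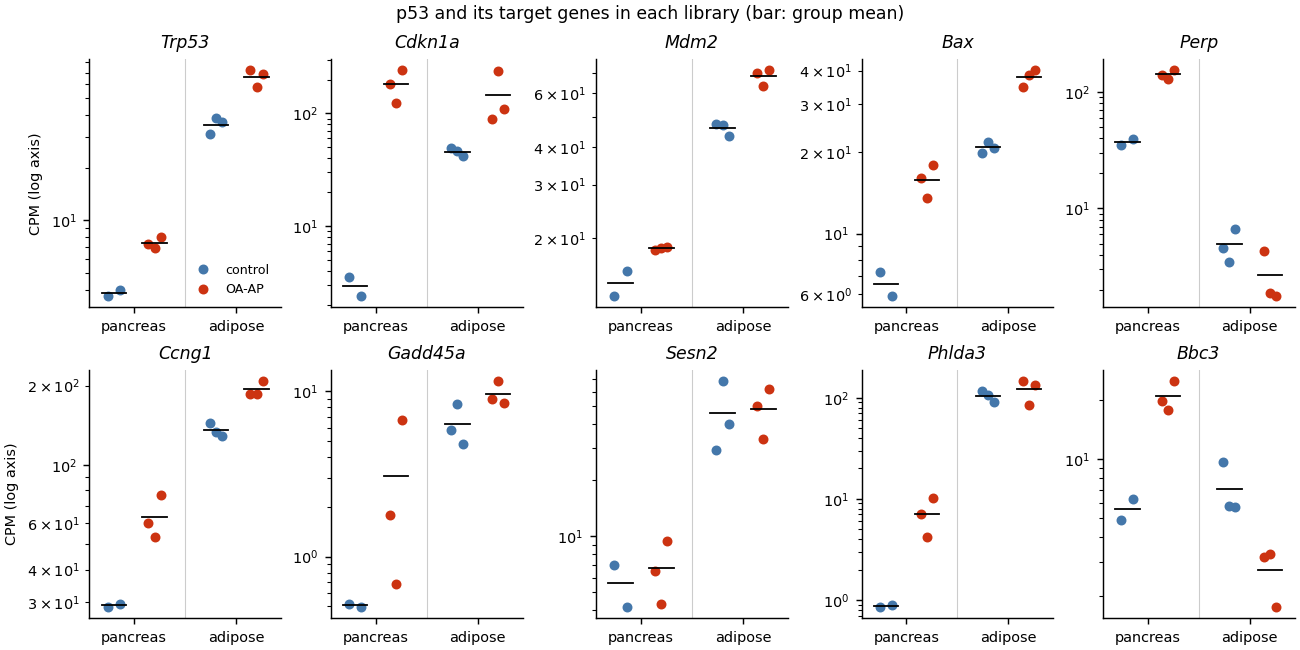
TMM-scaled CPM (log axis, each panel with its own range) of p53 and 9 of its targets in every library, with control in blue, OA-AP in red and a bar at the group mean. In the pancreas the OA-AP points lie above both controls in each panel except Sesn2, and in adipose tissue the OA-AP points of Bbc3 lie below the controls.

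All 3 apoptosis genes rose in the pancreas. Perp, a p53 effector in the plasma membrane, was the most abundant member in control pancreas and had 35.1 and 39.3 CPM there and 141, 131 and 154 CPM in OA-AP. Its groups were far apart and its libraries close to one another, and the log2 fold change was 1.93 ± 0.14 (adjusted p = 0.000131, edgeR). Bbc3 encodes Puma, a BH3-only protein that switches on Bax, and had 4.89 and 6.28 CPM in controls and 19.8, 17.8 and 25.1 CPM in OA-AP. No libraries overlapped, and the log2 fold change was 1.91 ± 0.22 (adjusted p = 0.000693, edgeR). Bax, the protein that perforates the outer mitochondrial membrane, had 7.21 and 5.88 CPM in controls and 16.0, 13.5 and 18.0 CPM in OA-AP. Its increase was smaller than that of Bbc3, at 1.27 ± 0.20 on the log2 scale (adjusted p = 0.00251, edgeR).

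Phlda3, a pleckstrin-homology protein that competes with Akt for membrane lipids and so restrains Akt, was near the bottom of the range in control pancreas, with 10 and 9 counts. It had 0.86 and 0.90 CPM in controls and 7.09, 4.18 and 10.2 CPM in OA-AP. All OA-AP libraries were higher, with a 2.44-fold spread among them, and the log2 fold change was 3.02 ± 0.47 (adjusted p = 0.00263, edgeR). Ccng1, cyclin G1, which recruits a phosphatase to Mdm2, had 28.9 and 29.5 CPM in controls and 60.1, 53.03 and 76.9 CPM in OA-AP. It rose by 1.12 ± 0.18 on the log2 scale (adjusted p = 0.00288, edgeR), with no overlap between groups.

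Trp53 RNA itself also rose in the pancreas. It had 3.69 and 3.99 CPM in control libraries and 7.30, 6.92 and 8.002 CPM in OA-AP libraries. The groups did not overlap and the libraries of each were close together, with a log2 fold change of 0.95 ± 0.21 and an adjusted p = 0.0119 (edgeR's quasi-likelihood test). This call was lost when either control was left out (adjusted p = 0.0898 without control replicate 1 and 0.0722 without control replicate 2), with log2 fold changes of 0.90 and 1.01.

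The other 3 members were not called in the pancreas. Mdm2 had 12.9 and 15.6 CPM in controls and 18.2, 18.6 and 18.7 CPM in OA-AP, so its groups did not overlap, but the difference was small (log2 fold change 0.38 ± 0.15, adjusted p = 0.0815, edgeR). With library totals alone it was called, at a log2 fold change of 1.10. Gadd45a, a stress protein that binds PCNA and p21, had 6 and 5 counts in the control libraries, and 0.51 and 0.50 CPM. In OA-AP it had 1.78, 0.69 and 6.69 CPM, a 9.75-fold range, and replicate 3 held most of the counts (128, against 34 and 12). Its log2 fold change was 2.58 ± 1.10 (adjusted p = 0.119, edgeR) and 1.23 without OA-AP replicate 3. DESeq2 called it (adjusted p = 0.0193), as did edgeR without OA-AP replicate 2 (adjusted p = 0.0168), with no filter on low counts (0.000209) and with library totals alone (0.0315). E230016M11Rik, on the opposite strand, overlaps Gadd45a and had 35 counts over the pancreas libraries, and the strand setting of the counting is not given in the sources used here. Sesn2, a leucine sensor that holds back mTORC1, had 7.04 and 4.19 CPM in controls and 6.51, 4.35 and 9.41 CPM in OA-AP. Its groups overlapped in part, with OA-AP replicate 3 above both controls (log2 fold change 0.26 ± 0.37, adjusted p = 0.614, edgeR).

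Each of the 10 members had its highest pancreas level in OA-AP replicate 3, and among the OA-AP libraries 39.6% of all tested genes were highest in that library. The same library stood apart in markers of other cells. Summed neutrophil markers (6 genes) were 94.5 CPM in replicate 3, 12.4 CPM in replicate 1 and 3.15 CPM in replicate 2, against 0.94 and 1.89 CPM in controls, where Mpo and Retnlg were at 0. Macrophage markers (5 genes) were 83.2 CPM in replicate 3, 29.1 and 26.1 CPM in the other OA-AP libraries and 25.6 and 14.1 CPM in controls. Mesothelial markers (3 genes) were 247 to 729 CPM in OA-AP and 91.7 to 105 CPM in controls, with the highest value again in replicate 3. Their part in the members' increases was not tested, and in bulk RNA fewer cells of a type and less RNA per cell cannot be told apart. Without replicate 3, 7 members were called, beside 4265 of 12576 tested genes.

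In adipose tissue, 4 of the 10 members were called, Trp53, Cdkn1a and Bax as higher and Bbc3 as lower in OA-AP. Of 15839 tested genes 25.1% were called, 12.1% higher and 13.0% lower. The median log2 fold change of the members was 0.54, against -0.01 over all tested genes. In 6 members every OA-AP library was above every control, which held for 26.4% of tested genes, in Bbc3 every OA-AP library was below, and Perp, Sesn2 and Phlda3 overlapped. Over all tested genes the groups did not overlap in 52.4%. With library totals alone the median over all genes fell by 0.15 and the share of called genes that were higher went from 48.1% to 32.1%. Then 4 members were called, again 3 higher and 1 lower, beside 4250 of the 15839 tested genes, 1365 higher and 2885 lower.

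Trp53 had 31.2, 38.4 and 36.4 CPM in control adipose libraries and 72.1, 57.9 and 69.0 CPM in OA-AP libraries. The groups were well separated, with a log2 fold change of 0.91 ± 0.12 (adjusted p = 0.0021, edgeR). Bax had 19.9, 21.8 and 20.7 CPM in controls and 34.8, 38.6 and 40.1 CPM in OA-AP. It was the member with the smallest p in adipose tissue, at a log2 fold change of 0.86 ± 0.09 (adjusted p = 0.00112, edgeR). Cdkn1a had 49.3, 46.0 and 41.9 CPM in controls and 89.9, 239 and 109 CPM in OA-AP. All OA-AP libraries were higher, but replicate 2 was 2.66 times replicate 1, and the log2 fold change of 1.68 ± 0.36 (adjusted p = 0.0135, edgeR) was 1.13 without it (adjusted p = 0.00101). The Cdkn1a call was lost without control replicate 3 (adjusted p = 0.0535) and with no filter on low counts (0.0721).

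Bbc3 went the other way. It had 9.67, 5.76 and 5.72 CPM in control adipose libraries and 3.16, 3.27 and 1.77 CPM in OA-AP libraries. Every OA-AP library lay below every control, with a log2 fold change of -1.37 ± 0.32 (adjusted p = 0.0148, edgeR). Control replicate 1 was the highest, and without it the log2 fold change was -1.06 with an adjusted p = 0.0502.

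Mdm2 and Ccng1 passed the adjusted p but not the fold of 1.5. Mdm2 had 47.5, 47.3 and 43.3 CPM in controls and 70.2, 63.5 and 71.5 CPM in OA-AP, a log2 fold change of 0.57 ± 0.09 (adjusted p = 0.00337, edgeR). Ccng1 had 144, 133 and 129 CPM in controls and 186, 185 and 208 CPM in OA-AP, a log2 fold change of 0.51 ± 0.10 (adjusted p = 0.0074, edgeR). Neither overlapped between groups, and Mdm2 crossed the fold of 1.5 when control replicate 1, control replicate 2 or OA-AP replicate 2 was left out, with log2 fold changes of 0.60, 0.60 and 0.63.

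The other 4 members did not pass the test in adipose tissue. Gadd45a had 5.79, 8.35 and 4.80 CPM in controls and 8.97, 11.5 and 8.43 CPM in OA-AP (log2 fold change 0.61 ± 0.24, adjusted p = 0.0786, edgeR), and was called without control replicate 2 (0.87, adjusted p = 0.0297). Perp had 4.61, 3.47 and 6.67 CPM in controls and 4.35, 1.88 and 1.77 CPM in OA-AP (log2 fold change -0.89 ± 0.41, adjusted p = 0.129, edgeR). OA-AP replicate 1 was the library that overlapped the controls, and without it Perp was called lower (-1.43, adjusted p = 0.0236). Phlda3 ranged from 91.6 to 116 CPM in controls and from 85.3 to 146 CPM in OA-AP (log2 fold change 0.22 ± 0.21, adjusted p = 0.424, edgeR). Sesn2 ranged from 29.0 to 68.4 CPM in controls and from 33.2 to 61.8 CPM in OA-AP (log2 fold change 0.08 ± 0.35, adjusted p = 0.878, edgeR).

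Markers of immune cells also moved with the condition in adipose tissue, in both directions. Summed neutrophil markers were 6.68 to 12.3 CPM in controls and 143 to 178 CPM in OA-AP, macrophage markers were 342 to 451 CPM and 539 to 696 CPM, and none of either list was at 0 throughout. T cell markers (4 genes) were lower, at 2.48 to 6.44 CPM in controls and 0.93 to 2.47 CPM in OA-AP. B cell markers (3 genes) were also lower, at 4.13 to 31.8 CPM and 1.09 to 1.87 CPM. Fibroblast markers (5 genes) went from 2834 to 3642 CPM in controls to 1766 to 2118 CPM in OA-AP, and adipocyte markers were 24227 to 25008 CPM and 26949 to 28301 CPM. Their part in the changes of Trp53, Cdkn1a, Bax and Bbc3 was not tested.

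The change was then compared between tissues with a tissue by condition term over all 11 libraries, given as the adipose change minus the pancreas change. The fit took the libraries as independent, and the labels do not say whether pancreas and adipose libraries came from the same mice. Of the 10 members 4 differed at an adjusted p under 0.05, each with the smaller value in adipose tissue. Over 17046 tested genes 21.3% differed, 10.5% with the smaller and 10.8% with the larger value in adipose tissue. Cdkn1a differed by -4.27 ± 0.62 on the log2 scale (adjusted p = 0.00109, edgeR), although it was called higher in both tissues. Perp differed by -2.84 ± 0.45 (adjusted p = 0.0016, edgeR) and Bbc3 by -3.28 ± 0.42 (adjusted p = 0.000335, edgeR), with a positive log2 fold change in the pancreas and a negative one in adipose tissue for each. Phlda3 differed by -2.82 ± 0.56 (adjusted p = 0.00495, edgeR). Each of these 4 differences passed in every alternative that tested it. With library totals alone 8 members passed, beside 6662 of the 17046 tested genes, and that scaling moved the median over all genes by -0.82.

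For the other 6 members no difference between tissues was called. Trp53 differed by -0.05 ± 0.20 (adjusted p = 0.911, edgeR), from log2 fold changes of 0.95 in pancreas and 0.91 in adipose tissue, and Mdm2 differed by 0.18 ± 0.15 (adjusted p = 0.465, edgeR). Ccng1 lay near the threshold, at -0.61 ± 0.20 (adjusted p = 0.0514, edgeR), and DESeq2 called it (adjusted p = 0.0362). Bax differed by -0.42 ± 0.21, Gadd45a by -1.99 ± 1.11 and Sesn2 by -0.19 ± 0.59. A missed threshold does not show that the tissues changed alike.

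**Figure D2:**
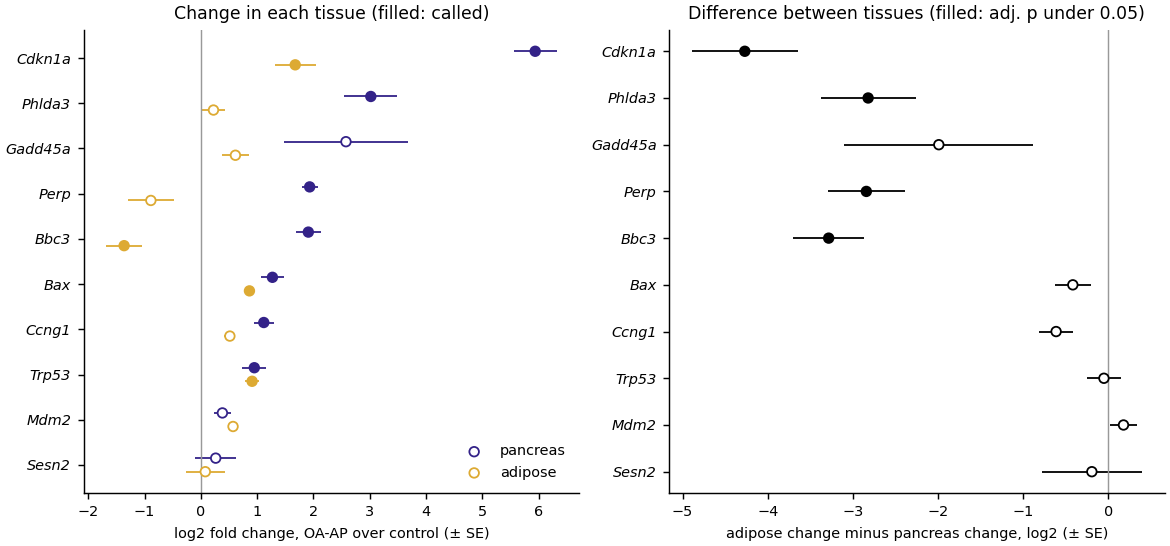
Left, log2 fold change of OA-AP over control (± SE) of each member in pancreas and adipose tissue, with filled points for members called at an adjusted p under 0.05 and a fold of at least 1.5. Right, adipose change minus pancreas change (log2, ± SE), with filled points at an adjusted p under 0.05, where Cdkn1a, Phlda3, Perp and Bbc3 lie between -4.27 and -2.82.

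The order of the members by level per gene length (CPM per kb) differed between the tissues. These values use the gene lengths deposited for the pancreas and are compared within a group, since the tables of the tissues were scaled apart. In control pancreas Perp came first at 19.1 ± 1.5 CPM per kb (SD, n = 2), then Ccng1 at 8.32 and Bax at 4.15, and Gadd45a came last at 0.29. Neighbours overlapped only between Mdm2 and Bbc3 and between Trp53 and Cdkn1a. In OA-AP pancreas Perp was still first at 72.7 ± 5.9 (SD, n = 3), but Cdkn1a had gone from rank 8 to rank 2 at 51.6 ± 16.4 CPM per kb, overlapping Perp in the range of its libraries. Ccng1 followed at 18.0, Bax at 10.05 and Bbc3 at 9.85, of which Bax and Bbc3 overlapped, and Trp53 (1.83), Sesn2 (1.94) and Gadd45a (1.73) overlapped at the bottom.

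In control adipose tissue Phlda3 and Ccng1 led, at 67.0 ± 7.9 and 38.5 ± 2.2 CPM per kb (SD, n = 3), and Perp was last at 2.52, overlapping Bbc3 (3.32), which overlapped Gadd45a (3.58). Bax (13.2), Sesn2 (13.2) and Cdkn1a (12.9) overlapped in the middle, as did Mdm2 (9.06) and Trp53 (8.73). In OA-AP adipose tissue Phlda3 (78.2 ± 20.7), Ccng1 (55.0 ± 3.7) and Cdkn1a (41.1 ± 22.9) came first and each overlapped the next, and Perp (1.37) and Bbc3 (1.29) were last and overlapped. Phlda3 was thus at the top in adipose tissue and at rank 9 in control pancreas, and Perp was first in pancreas and at rank 10 in control adipose tissue.

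**Figure D3:**
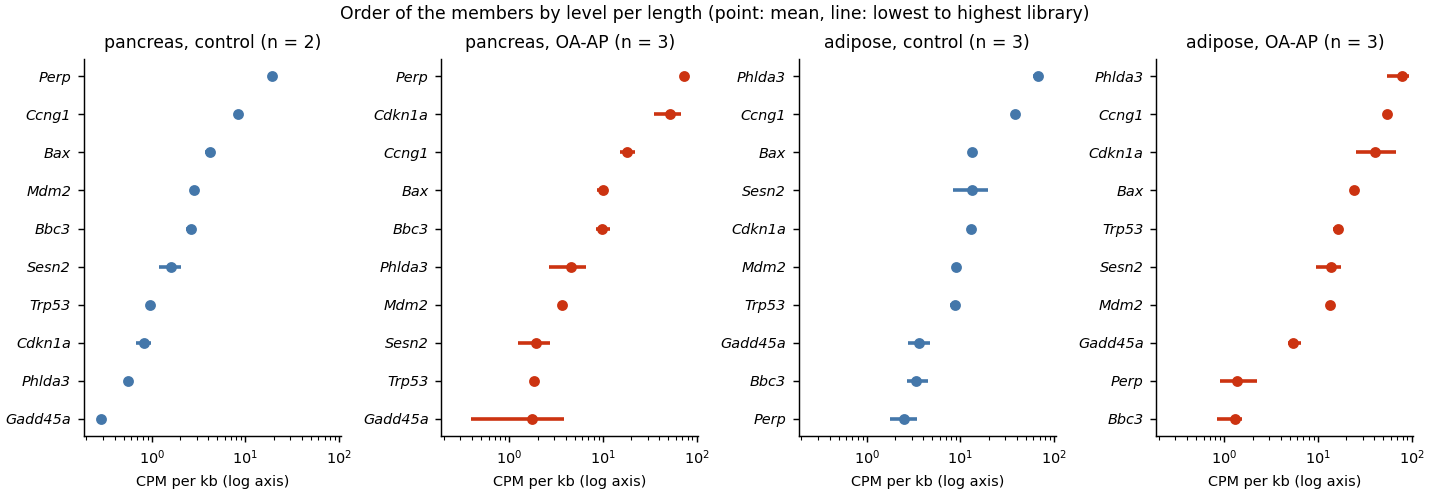
Mean level per gene length (CPM per kb, log axis) of each member in the 4 groups, ordered from highest to lowest within each group, with a line from the lowest to the highest library. Cdkn1a goes from rank 8 in control pancreas to rank 2 in OA-AP pancreas, while Phlda3 leads in both adipose groups.

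Further p53 targets, a list of 48 genes reported as p53-induced, moved in both directions. In the pancreas 43 were tested and 26 called, 17 higher and 9 lower, beside 29.8% of all tested genes called, 16.2% higher and 13.5% lower. Their median log2 fold change was 0.86, against 0.04 over all tested genes. Eda2r, a death-domain receptor of the TNF family, had 1 count in each control library and 178, 150 and 173 counts in OA-AP. The ratio of its levels was 97.6, with an exact 95% interval of 26.9 to 808 that covers counting error only (adjusted p = 5.91e-05, edgeR). The other increases with the smallest p were in Xpc, a DNA damage sensor of nucleotide excision repair (1.89 ± 0.17, from 7.34 to 27.2 CPM), Aen, an apoptosis-enhancing nuclease (1.93 ± 0.19, from 6.14 to 23.4 CPM) and Ei24 (1.52 ± 0.14, from 27.6 to 79.2 CPM). Plk2, a kinase of the polo family (-2.35 ± 0.16), the adenylate kinase Ak1 (-3.50 ± 0.43), Dcxr (-1.22 ± 0.22) and Rps27l (-0.65 ± 0.13) were lower, each with an adjusted p from 9.63e-05 to 0.00602. With library totals alone, 27 were called higher and 3 lower, beside 5843 and 506 of 12884 tested genes. Dcxr and Rps27l were then no longer called. Both calls were also lost in edgeR without control replicate 2 (adjusted p = 0.0634 and 0.0917), and Rps27l was under the fold of 1.5 with no filter on low counts (-0.58). With either control left out, fewer genes were called, both on this list and over all tested genes.

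In adipose tissue 44 of these targets were tested and 11 called, 7 higher and 4 lower, with a median log2 fold change of 0.15. The share called lay near the 25.1% over all tested genes. Increases with the smallest p were in Aen (1.61 ± 0.14, from 14.99 to 45.8 CPM), Shisa5 (1.06 ± 0.15, from 142 to 295 CPM), the death receptor Tnfrsf10b (1.22 ± 0.17, from 11.7 to 27.2 CPM) and Triap1 (0.66 ± 0.10, from 18.6 to 29.4 CPM). Ddb2, which like Xpc recognises DNA damage (-1.09 ± 0.16), Steap3 (-0.63 ± 0.13), Xpc (-0.70 ± 0.14) and Cd82 (-0.74 ± 0.18) were lower, and none of these 4 but Ddb2 kept its call in all alternatives. Cd82 lost it without control replicate 1, control replicate 3 or OA-AP replicate 3 (adjusted p from 0.0594 to 0.0663, edgeR), Steap3 fell under the fold of 1.5 without control replicate 1 (-0.53) or OA-AP replicate 2 (-0.56), Xpc did so without control replicate 3 (-0.55), and Triap1 did so with library totals alone (0.51). Aen, Plk3, Tnfrsf10b and Zmat3 were among those that rose in both tissues, Cd82 fell in both, and Xpc rose in pancreas and fell in adipose tissue. The tissue by condition term was called for 19 of 47, with 11 smaller and 8 larger in adipose tissue, beside 21.3% of all tested genes, 10.5% smaller and 10.8% larger. Xpc differed by -2.60 ± 0.23 and Ei24 by -1.69 ± 0.17, and Plk2 by 2.44 ± 0.21, with a higher value in adipose tissue.

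**Figure D4:**
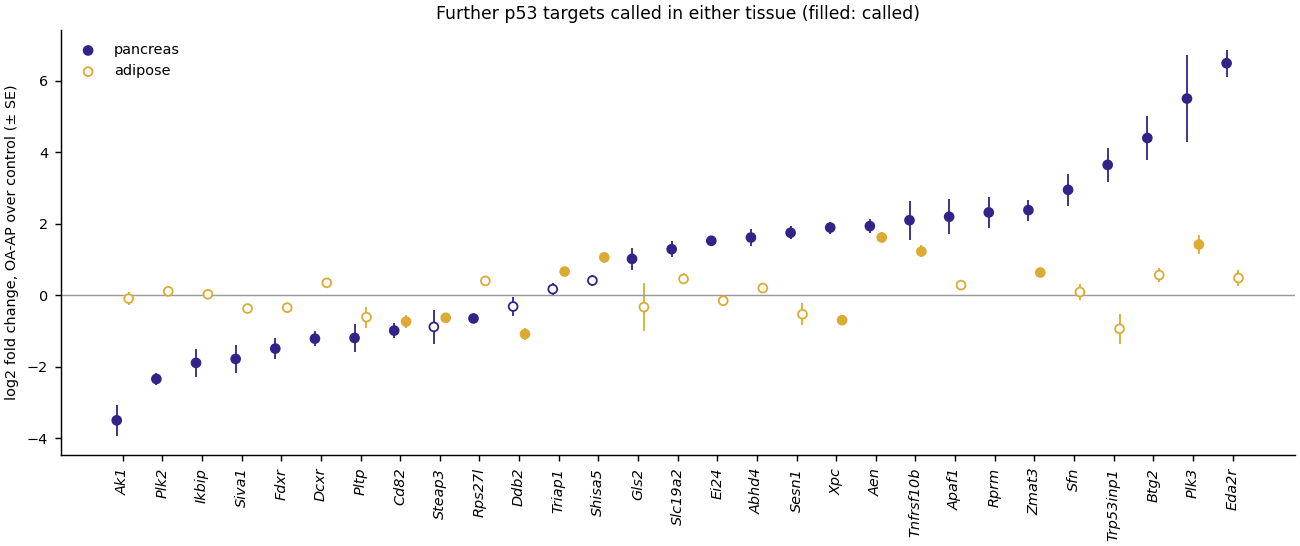
Log2 fold change of OA-AP over control (± SE) for 29 further p53 targets called in at least 1 tissue, ordered by the pancreas change, with filled points for called genes. Of the genes shown, 16 are called higher and 9 lower in the pancreas, against 6 and 4 in adipose tissue, and the values of Eda2r and Plk3, which had 2 counts over both control pancreas libraries, are fitted and not bounds.

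Regulators of p53 were listed with 27 genes. In the pancreas 8 of 24 tested were called, 4 higher and 4 lower, a share near the 29.8% of all tested genes. With either control left out, fewer of the list were called, as was so over all tested genes. Without OA-AP replicate 1 the count was 5, beside 2703 of 12457 tested genes. With library totals alone 13 were higher and 0 lower, beside 5843 and 506 of 12884 tested genes. The higher genes were Ppp1r13b (1.07 ± 0.16) and Kat5 (1.09 ± 0.23), which encode the p53 cofactor Aspp1 and the acetyltransferase Tip60, together with Ppp1r13l (0.90 ± 0.22), encoding the inhibitory iAspp, and the coactivator Crebbp (0.73 ± 0.18). The lower genes were the damage kinases Atm (-1.18 ± 0.30) and Prkdc (-1.03 ± 0.26), the adaptor Trp53bp1 (-0.86 ± 0.20) and the ubiquitin ligase Rchy1 (-0.60 ± 0.13), and none of these 4 was called with library totals alone. Of the 8 genes only Ppp1r13b kept its call in all 12 alternatives. In adipose tissue 2 of 26 were called, beside 25.1% of all tested genes. Hipk2, a kinase that phosphorylates p53, was higher (0.83 ± 0.16) and Chek2, a checkpoint kinase, was lower (-1.35 ± 0.24). Without OA-AP replicate 2 the count was 4, beside 4476 of 16244 tested genes.

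Close relatives of the members in the same gene families were listed with 16 genes, of which Sesn1 is also on the list of further p53 targets. In the pancreas 8 of 12 tested were called, 6 higher and 2 lower, beside 29.8% of all tested genes. With either control left out, fewer of these relatives were called, as was so over all tested genes. Gadd45b rose from 12.7 to 133 CPM (3.39 ± 0.43), Ccng2 from 3.25 to 14.8 CPM (2.20 ± 0.37), Sesn1 from 42.0 to 141 CPM (1.74 ± 0.19) and Bcl2l11, which encodes Bim, from 2.65 to 9.60 CPM (1.84 ± 0.33). Cdkn1c, the p57 relative of Cdkn1a, fell from 2.01 to 0.42 CPM (-2.26 ± 0.46) and the Bcl2 family member Bok from 16.8 to 5.51 CPM (-1.61 ± 0.33). The calls of Ccng2 (adjusted p = 0.0545), Cdkn1c (0.107) and Bok (0.084) were lost in edgeR without control replicate 1, and that of Bok also without control replicate 2 (0.0618) and with library totals alone (0.0755). In adipose tissue 8 of 14 were called, 4 in each direction, beside 25.1% of all tested genes. Phlda1 (1.94 ± 0.21), Gadd45g (1.38 ± 0.26), Gadd45b (0.89 ± 0.17) and Bak1 (0.84 ± 0.10) rose, and Cdkn1c (-1.38 ± 0.32), Ccng2 (-1.09 ± 0.18), Sesn3 (-0.80 ± 0.24) and Cdkn1b (-0.72 ± 0.10), which encodes p27, fell. Sesn3 kept its call in 7 of 12 alternatives. Of the CDK inhibitors, Cdkn1a rose and Cdkn1c fell in both tissues, while Cdkn1b rose in the pancreas (0.59 ± 0.17) and fell in adipose tissue. Ccng2 rose in pancreas and fell in adipose tissue, and the tissue by condition term for it was -3.30 ± 0.44 (adjusted p = 0.000495, edgeR).

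Of 13 cell cycle genes that p53 and p21 are known to repress, 2 were abundant enough to test in the pancreas. There edgeR and DESeq2 each called 0 of them, with 0 at an unadjusted p under 0.05 in edgeR, beside 29.8% of all tested genes called. In adipose tissue 11 were tested and 1 was called, beside 25.1% of all tested genes called and 13.0% called lower. This was Aurkb, the mitotic kinase, which was lower (from 1.52 to 0.73 CPM, -1.04 ± 0.32, adjusted p = 0.0391, edgeR). The Aurkb call was lost in 6 of 12 alternatives. The median log2 fold change of the 11 genes was -0.61, against -0.01 over all tested genes.

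The ATF4 pathway, an amino acid and endoplasmic reticulum stress response that shares Sesn2 as a target with p53, was listed for comparison with 21 genes. In the pancreas 12 of 21 were called, 3 higher and 9 lower, beside 29.8% of all tested genes, with a median log2 fold change of -0.64. Cth (-4.00 ± 0.23), Aldh18a1 (-2.22 ± 0.17), Shmt2 (-1.002 ± 0.15) and Ddit3 (-1.96 ± 0.29), which encodes the transcription factor Chop, were lower, and Ddit4 (3.66 ± 0.36), Nupr1 (1.66 ± 0.23) and Cebpb (2.19 ± 0.30) were higher. The Shmt2 call was lost with library totals alone (-0.30, adjusted p = 0.176, edgeR). In adipose tissue 12 of 21 were called, 9 higher and 3 lower, beside 25.1% of all tested genes, with a median of 0.52, and Ppp1r15a (0.87 ± 0.09), Cebpb (1.51 ± 0.15), Aldh18a1 (1.25 ± 0.13) and the cystine transporter Slc7a11 (3.22 ± 0.41) led the increases. Cth (-2.01 ± 0.39), Phgdh (-0.75 ± 0.16) and Trib3 (-1.52 ± 0.39) were lower there, and Trib3 kept its call in 8 of 12 alternatives.

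**Figure D5:**
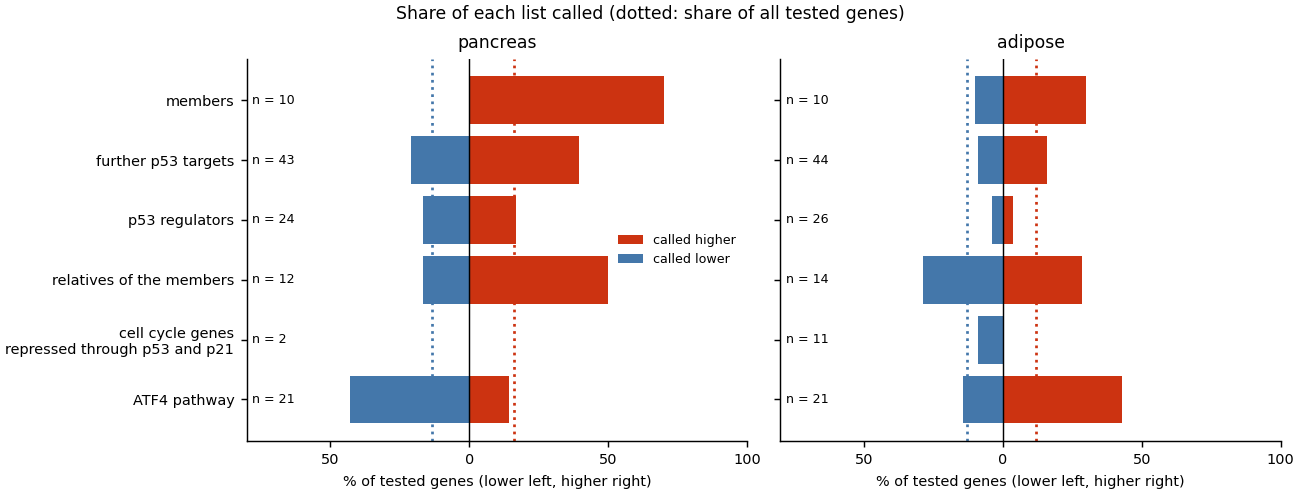
Percent of the tested genes of each list called higher (red, right) and lower (blue, left) in pancreas and adipose tissue, with dotted lines at the share of all tested genes and n the number tested. In the pancreas 7 of 10 members are called higher and none lower, and of the ATF4 pathway 3 of 21 are higher and 9 lower.

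Genes whose pattern was most like that of Cdkn1a were sought over the 11 libraries, by the root mean square difference of centred log2 CPM among 8063 genes averaging 3 or more on the log2 CPM scale. Junb, a subunit of the AP-1 transcription factor, was nearest (0.72), followed by Pdk4, a kinase that shuts pyruvate dehydrogenase (0.74), Errfi1, an inhibitor of the EGF receptor (0.76), Fkbp5, a cochaperone of the glucocorticoid receptor (0.80), and Vmp1, an autophagy protein (0.85). The distances used a joint scaling of the 11 libraries, whereas the CPM given next were scaled within each tissue. Junb had 3.78 and 3.99 CPM in control pancreas and 79.3, 90.9 and 184 CPM in OA-AP pancreas. Pdk4 had 5.15 and 3.69 CPM and then 261, 202 and 329 CPM in the same libraries. Both also rose in OA-AP adipose libraries relative to every control, with Junb going from 30.0 to 31.4 CPM in controls to 128 to 209 CPM. Among the members Bax was nearest at rank 194, Ccng1 was at rank 378, Mdm2 at 1562 and Trp53 at 1809, and Perp was far down at rank 7812. Gadd45a and Bbc3 lay under the level minimum. These distances describe 11 libraries that share 2 tissues and 2 conditions, and no test was made of them.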

How the data were processed

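RNA was sequenced as 150-bp paired-end reads. Per the labels and the study's methods, the authors trimmed reads with Trim Galore 0.6.6, checked them with fastp 0.20.1, used STAR to map them to GRCm38 and obtained gene counts from featureCounts 2.0.1. The deposited values are raw whole-number counts per gene, without normalization, in 1 table per tissue. The annotation release and strand setting are not given in the sources used here. Totals were 14188832 to 27928097 counts per library.

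Each tissue was tested with edgeR 4.0.16 in R 4.3.3 (filterByExpr, TMM factors, robust quasi-likelihood test, Benjamini-Hochberg adjustment). Genes were called at an adjusted p under 0.05 and a fold of at least 1.5. Standard errors were derived from the F statistic, as the absolute log2 change over its root. The tissue by condition term was fitted over all 11 libraries. CPM values use the TMM-scaled library sizes, and log2 CPM for likeness a prior count of 2. Alternatives were DESeq2 1.42.0, its size factors, library totals alone, TMM factors without acinar genes, other filters and folds, the replicate block, and each library left out, where a control group of 1 was assumed to vary like the other group.

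The members and the lists were chosen with earlier results of these data known. Named from each list were up to 4 genes per tissue and direction with the smallest p among those called, and genes called in both tissues were named after their values were seen. Promoters came from RefSeq on GRCm38.p6. Counts differed between replicates by more than sampling noise (lowest chi-square per degree of freedom 6.91). Reads carry no molecular identifiers, so intervals cover counting error only. Some further items of the lists are not reported here.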

Additional observations from a re-analysis of the deposited data

Results flagged for a closer look

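For 4 members the change between control and OA-AP differed between the tissues by the tissue by condition test (edgeR's quasi-likelihood test over 11 libraries). Cdkn1a rose less in adipose tissue than in the pancreas, by -4.27 on the log2 scale (adjusted p = 0.00109), and it was higher in every OA-AP library of both tissues. Bbc3 differed by -3.28 (adjusted p = 0.000335), with each OA-AP library above the controls in the pancreas and below them in adipose tissue. Perp differed by -2.84 (adjusted p = 0.0016) and Phlda3 by -2.82 (adjusted p = 0.00495), and in both the adipose groups overlapped. No outlier test was made on single libraries, since no group held more than 3.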

How the results depend on the processing

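Of 416 alternative values of the members, 381 kept their direction and side of the threshold, 18 crossed it upward, 5 crossed it downward and 12 changed sign. With library totals alone, 6349 genes were called in the pancreas in place of 3834, 6662 in the tissue by condition test in place of 3636, and 8 members in that test in place of 4, while Mdm2 there became -0.67 (adjusted p = 0.00597), Sesn2 in adipose tissue -0.079, and Rps27l and Rchy1 in the pancreas 0.064 and 0.11. With a fold of at least 2, 2464 genes were called in the pancreas, 2228 in place of 3981 in adipose tissue, 2 members in adipose tissue (Cdkn1a and Bbc3) and 6 further targets there in place of 11. Leaving out 1 library gave 1495 to 4265 called genes and 15 to 28 further targets in the pancreas, with 1687 and 1495 genes without control replicate 1 and 2, and 2334 to 3857 in the tissue by condition test. Without 1 library Sesn2 ranged from -0.10 to 0.70 in the pancreas and from -0.16 to 0.49 in adipose tissue, its tissue difference from -0.64 to 0.16, and that of Trp53 from -0.20 to 0.0073. The Trp53 difference was 0.0069 with TMM factors without acinar genes. Of 657 alternative values of named list genes, 53 kept their sign but lost their call, and 2 changed sign and were not called either. Where a cause is not in the setting's construction, the cause was not tested. Depth limits Gadd45a and Phlda3, which had at most 10 counts in each control pancreas library.

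Control and OA-AP libraries of the same number came from different mice, since each mouse was assigned to a single diet. Whether the numbers pair them in another way could not be decided from these libraries. The same holds for whether the numbers mark the same mouse in pancreas and adipose tissue. Same-numbered control and OA-AP libraries deviated together with r = -0.0058, 0.056 and -0.163 in adipose tissue and 0.0015 and -0.041 in the pancreas. Differently numbered adipose libraries had r from -0.250 to 0.293, a range that holds the same-numbered values. With 2 pancreas controls, the r values of one are those of the other with the sign reversed. Within a tissue, the replicate block joined same-numbered control and OA-AP libraries. In the tissue by condition test it joined same-numbered pancreas and adipose libraries of a condition, whose r ranged from -0.012 to 0.090. With the block, 2156 genes were called in the tissue by condition test. Sesn2 in the pancreas became -0.040, and Gadd45a in adipose tissue was called (adjusted p = 0.042, edgeR).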
